A study of Mus musculus with 12 samples.

Results

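NIH3T3 mouse fibroblasts kept for 10 h in tunicamycin were set against the same cells at 0 h, with 3 arrays at 10 h and 3 at 0 h, which makes 6 of the 12 arrays of a tunicamycin time course. All 717 mature mouse miRNA probe sets among the 1412 mouse probe sets of the deposited value table were described. The 10 h cells had been growing asynchronously in medium with fetal bovine serum before they received tunicamycin at 2 μg/ml, and the 0 h cells were untreated cells of the same line. No untreated arrays at 10 h are among the samples, so tunicamycin and time in culture or handling cannot be told apart. The line is established and immortal, and neither the labels nor the methods tie the 3 arrays of a time point to separate cultures. The p-values therefore measure the spread between arrays, which may be technical.

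Tunicamycin blocks N-linked glycosylation, so that unfolded glycoproteins accumulate in the endoplasmic reticulum (ER). The unfolded protein response (UPR) then runs through 3 sensors, PERK, IRE1 and ATF6. PERK slows translation and raises the transcription factors ATF4 and, later, CHOP, while IRE1 is a nuclease that splices the mRNA of XBP1 and can cleave other RNAs. When the stress lasts, CHOP is associated with cell death, and the miRNAs of late stress are the ones measured at 10 h. A miRNA is cut from a hairpin precursor, and the arm that is loaded less often carries a star in the older names used on these arrays.

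Values are log2 signals as deposited, and a difference is the mean at 10 h minus the mean at 0 h on that log2 scale. A miRNA was called where limma, fitted over all 12 arrays, gave a p under 0.05 after Benjamini-Hochberg adjustment over the 717 miRNAs. All adjusted p values below come from that fit unless another is named. An exact permutation test of 3 arrays against 3 cannot give a p below 0.1. As the deposited tables hold no detection calls, each array was given a limit for background, its most frequent value plus 3 times the spread below that value. The limit lay between 2.97 and 3.23, and 52.2% to 55.8% of the miRNAs of an array were above it. All 9 fibroblast and mesenchyme marker miRNAs were above the limit at 10 h and at 0 h, and none of the markers of blood, liver, endocrine pancreas or embryonic stem cells was above it on all 3 arrays of either time point. Of the muscle markers 1 of 7 was above it on all 3 arrays at 10 h and at 0 h, and of the neuron markers 1 of 5 at 10 h and 2 of 5 at 0 h. Epithelial markers are described with the falls. The second 0 h array had the lowest estimated weight, 0.47, where the other 10 h and 0 h arrays had 0.87 to 1.38. The arrays at 5 h, which are also in the fit, had weights of 1.72, 0.54 and 0.66, and those at 2 h had 0.88 to 1.32. Low weights were therefore not confined to 0 h.

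The mature sequences of the miRNAs on which the late pattern turned are shown in RNA letters, 5′ to 3′, with the seed (bases 2 to 8), which largely sets the targets, in capitals. They are those of RefSeq on GRCm38.p6, in which 381 of the 717 miRNAs could be matched by name. Where the older array name gives no arm, the 5p or 3p arm was assigned from general knowledge of the miRNA. The rising set shows that miR-216b and miR-216a, although neighbours with like names, have different seeds, and that miR-217 and miR-708 each have another.
miR-217: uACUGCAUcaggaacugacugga
miR-216b: aAAUCUCUgcaggcaaauguga
miR-216a: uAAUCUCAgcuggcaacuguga
miR-708: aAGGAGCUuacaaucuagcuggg
miR-130b: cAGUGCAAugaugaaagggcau
MiR-217 lies at chr11:28763761-28763783, miR-216b at chr11:28746204-28746225 and miR-216a at chr11:28757018-28757039, all on the plus strand. MiR-708 lies at chr7:96249450-96249472 on the plus strand and miR-130b at chr16:17124071-17124092 on the minus strand.

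Of the falls, neighbours on the minus strand of chromosome X are shown because their seeds are alike. MiR-322, at chrX:53054306-53054327, has the same seed as miR-15a, at chr14:61632075-61632096 on the minus strand. MiR-503, at chrX:53054027-53054049, differs from both in the last base of the seed.
miR-503: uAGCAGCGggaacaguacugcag
miR-322: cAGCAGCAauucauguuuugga
miR-15a: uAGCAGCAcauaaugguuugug

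The let-7 members are shown because they share 1 seed and nearly all of their other bases, yet had differences of both signs.
let-7d: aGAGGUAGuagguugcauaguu
let-7e: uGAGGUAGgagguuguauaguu
let-7a: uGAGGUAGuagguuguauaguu
let-7f: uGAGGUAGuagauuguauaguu
let-7g: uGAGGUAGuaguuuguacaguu
miR-98: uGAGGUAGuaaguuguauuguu

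At 10 h, 40 of 717 miRNAs were higher than at 0 h and 51 were lower, so that 12.7% were called, 5.58% higher and 7.11% lower. Shifting every array to 1 median turned this split, to 38 higher and 18 lower. The median of the 10 h arrays lay below that of the 0 h arrays by 0.083. The 3 arrays of the time points did not overlap in 109 miRNAs higher and 92 lower at 10 h, 28% of the 717 in all. These include all 40 called higher and all 51 called lower, so a lack of overlap does not set 1 called miRNA apart from another. Most differences were small. The median difference of the 40 higher was 0.37 and that of the 51 lower was -0.36, against a median of 0.02 over all 717. Called differences were under 0.5 in size in 28 of the 40 and 29 of the 51, and only 4 of the higher and 9 of the lower reached 2-fold in the fit.

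The calls were not spread evenly over brightness. The miRNAs were divided into 4 equal bins by their mean over all 12 arrays. In the brightest bin (7.63 to 14.80), 34 of 179 were higher and 32 lower at 10 h, so that 36.9% were called. In the next bin (3.50 to 7.62), 5 were higher and 11 lower (8.94%). In the bin below (2.02 to 3.48), 1 was higher and 7 lower (4.47%), and in the dimmest bin 0 and 1 (0.556%). The median standard error was 0.067 in the brightest bin and 0.21, 0.23 and 0.14 in the other bins, in falling order of brightness. The called miRNAs of the brightest bin had a median difference of 0.29 in size. Of the 13 called miRNAs that reached 2-fold in the fit, 5 were above the limit on all 6 arrays (miR-216b, miR-217, miR-503, miR-708 and miR-872), and the other 8 were at background on 1 or more arrays, so sizes were not compared between bins. Among the 10 brightest at 0 h, which include let-7c, miR-23a, miR-125b-5p, let-7b, miR-31, miR-24 and miR-22, 3 were called. MiR-709 was higher by 0.12 and miR-23b by 0.10, and let-7a was lower by 0.15 (difference -0.15). The call of miR-709 ended without any 1 of the second or the third 10 h or the first or second 0 h array (adjusted p 0.057 to 0.15), and that of miR-23b without any array except the third 0 h array (0.056 to 0.13).

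**Figure D1:**
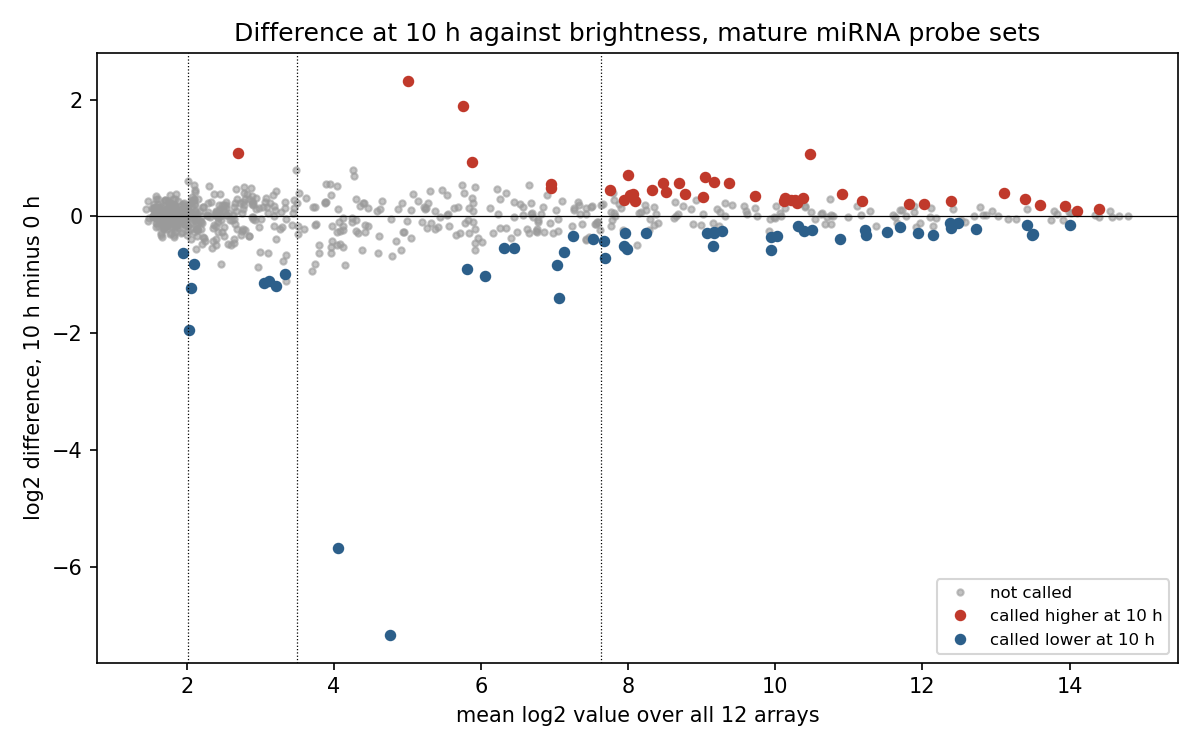
Difference between 10 h and 0 h (y axis, log2) against the mean log2 value over all 12 arrays (x axis) for each of the 717 miRNAs, with dotted lines between 4 bins of brightness. The brightest bin holds 34 of the 40 called higher and 32 of the 51 called lower, and the largest rises and falls sit to the left of it.

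Among miRNAs above the limit on all 6 arrays, miR-217, its cluster neighbour miR-216b, and miR-708 had the largest rises. MiR-217, which is best known as a pancreatic miRNA, had values of 6.74, 6.25 and 6.81 at 10 h, against 4.29, 4.37 and 4.16 at 0 h. MiR-216b had 7.02, 6.79 and 7.11 at 10 h, against 5.28, 5.10 and 4.85 at 0 h. The lowest 10 h array stood clear of the highest 0 h array in both. The difference of miR-217 was 2.32 with a standard error of 0.20, and that of miR-216b was 1.90 with one of 0.16. Their adjusted p values were 1.0e-06 and 8.3e-07. MiR-216a had 3.25, 4.12 and 3.45 at 10 h, against 2.56, 2.47 and 2.53 at 0 h, where all 3 arrays were below the limit. Its rise is therefore given as at least 1.42-fold, the mean at 10 h over the mean limit at 0 h (adjusted p = 0.0059). All 3 members of the list were called, but the cluster is one that the study chose on these samples, so the count is no independent evidence of its direction.

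MiR-708, which sits in an intron of the teneurin gene Tenm4 (formerly Odz4), was far brighter. It had 11.07, 11.20 and 11.23 at 10 h, against 10.10, 10.09 and 10.11 at 0 h, and its difference of 1.07 (standard error 0.06, adjusted p = 3.5e-09) was the only called one of 2-fold in the brightest bin. Its star arm miR-708* was much dimmer, with 4.57, 4.63 and 4.61 at 10 h, against 4.20, 3.38 and 4.13 at 0 h. These arrays did not overlap either, but the difference of 0.70 had a standard error of 0.26 and did not pass (adjusted p = 0.11).

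The other 11 of the 15 largest fitted rises ranged from 0.45 to 0.93. MiR-706 had 6.46, 6.42 and 6.43 at 10 h, against 5.67, 5.21 and 5.64 at 0 h, a difference of 0.93 (standard error 0.15, adjusted p = 5.6e-04). MiR-130b, of the family of miR-130 and miR-301, had 9.55, 9.57 and 9.47 at 10 h, against 8.88, 8.74 and 8.96 at 0 h, a difference of 0.67 (0.08, 2.0e-05). MiR-132, known as a target of the transcription factor CREB, had 8.96, 8.99 and 8.96 at 10 h, against 8.42, 8.35 and 8.44 at 0 h, a difference of 0.56 (0.07, 3.9e-05). In all of these the arrays of the time points were separate and those of 10 h lay close together. MiR-212, which is made from the same transcript as miR-132, had 5.98, 5.86 and 5.93 at 10 h, against 5.43, 5.40 and 5.83 at 0 h. It did not overlap, yet did not pass (0.37, adjusted p = 0.43). Of the 4 members of the family of miR-130 and miR-301, miR-130b alone was called (25%, against 12.7% of all miRNAs), and the list median was 0.09.

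The others of the 15 were miR-720 (0.71), miR-1224 (0.59), miR-27a* (0.58), miR-455 (0.58), miR-346 (0.55), miR-1981 (0.48), miR-1949 (0.45) and miR-423-5p (0.45), with adjusted p from 4.3e-05 to 0.012. Leaving out 1 array ended 3 of these calls. They were miR-346 without the second 10 h array (adjusted p = 0.064), miR-1981 without the third 10 h (0.059) or the first 0 h array (0.058), and miR-1949 without the first 10 h (0.057) or the second 0 h array (0.052).

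**Figure D2:**
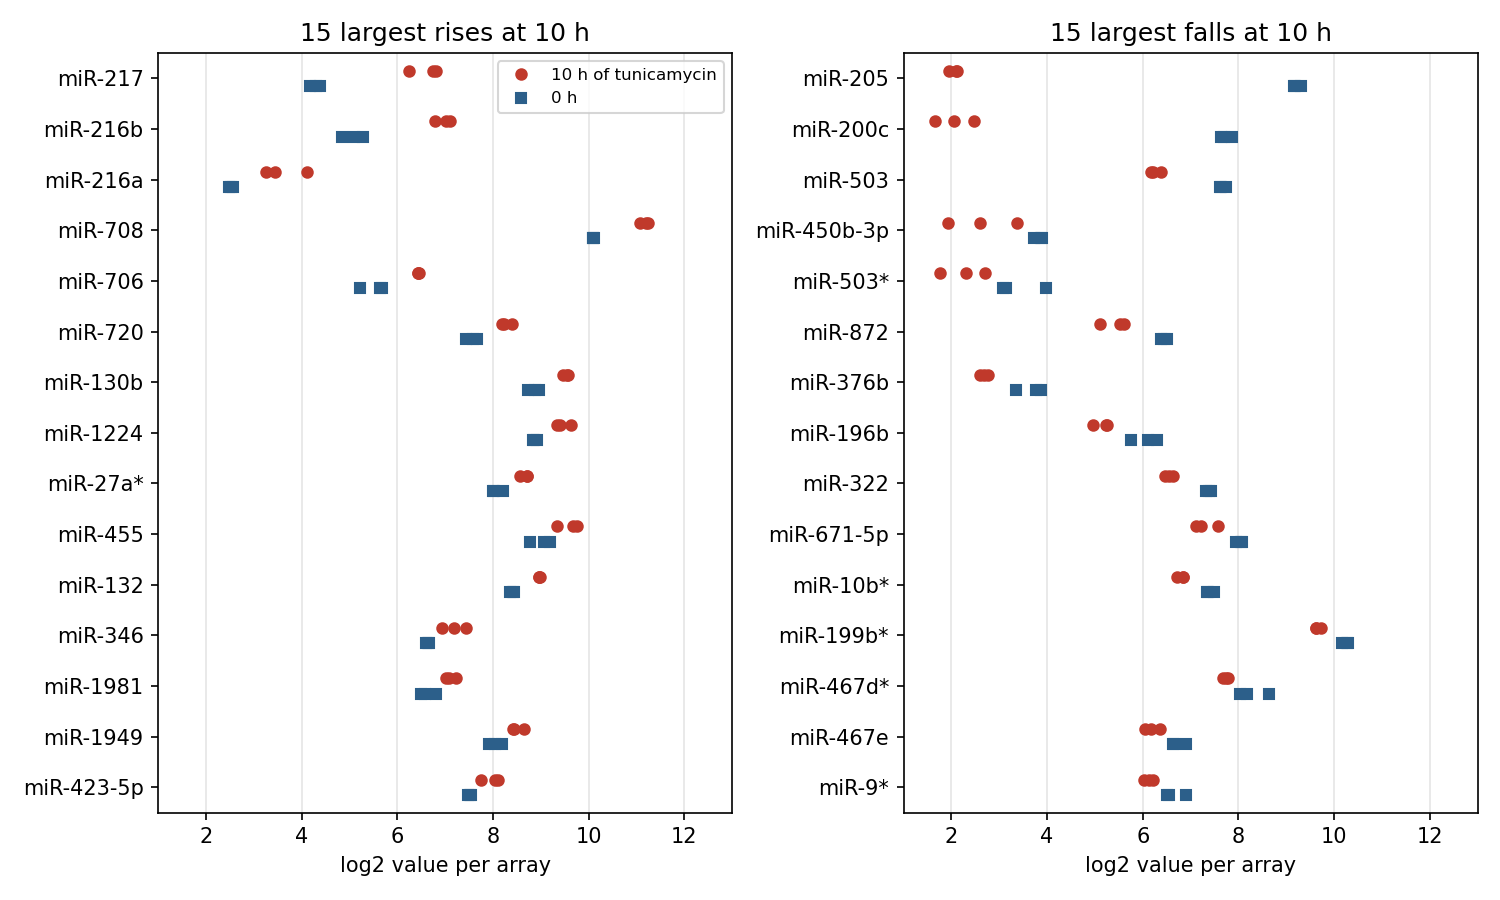
Log2 value of each array (x axis) for the called miRNAs without overlap that had the 15 largest rises and 15 largest falls (rows), with the 3 arrays at 10 h of tunicamycin as red circles above the 3 arrays at 0 h as blue squares. MiR-217 and miR-216b lead the rises, and the red circles of miR-205 and miR-200c lie near 2, against blue squares near 9 and 8.

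The miRNAs that the literature assigns to the 3 arms of the UPR did not move as 1 group. Of 4 miRNAs linked to PERK and CHOP, miR-216b and miR-708 rose (50% higher, against 5.58% of all miRNAs). MiR-216b joined that list through the study that picked it on these samples, so its rise is no independent evidence. MiR-211 and miR-204, which share the seed UCCCUUU, were at the array background, and no fold is given. MiR-211 had 2.14, 1.99 and 2.19 at 10 h, against 1.93, 3.00 and 1.68 at 0 h. MiR-204 had 1.87, 1.79 and 1.54 at 10 h, against 2.08, 1.87 and 1.79 at 0 h. Every one of these values was below the limit of its array. The study reports miR-211 induction as an internal control, without giving its values in the text.

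None of the 4 miRNAs described as substrates of the IRE1 nuclease, whose cleavage is known to release the translation of caspase-2 mRNA, was called, and their median difference was -0.09. With 12.7% of all miRNAs called, a list of 4 is too short for a count of 0 to set it apart. MiR-17 had 13.39, 13.31 and 13.31 at 10 h, against 13.36, 13.37 and 13.40 at 0 h (difference -0.04, standard error 0.03, adjusted p = 0.49). MiR-34a had 10.82, 10.62 and 10.62 at 10 h, against 10.77, 10.86 and 10.85 at 0 h (-0.14, 0.05, 0.13). MiR-125b-5p had 14.57, 14.55 and 14.57 at 10 h, against 14.57, 14.59 and 14.57 at 0 h (-0.01, 0.02, 0.80). MiR-96 was dim, with 4.30, 3.20 and 3.94 at 10 h, against 4.56, 3.74 and 4.56 at 0 h (-0.47, 0.32, 0.43). The arrays overlapped in all 4, and the bright miR-17 and miR-125b-5p were measured far more closely than miR-96. MiR-34a passed without the first 10 h array (adjusted p = 0.014).

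Of 5 miRNAs tied to XBP1 or ATF6, miR-346 and miR-455 rose, miR-199a-5p fell, and miR-214 and miR-30c-2* were not called. That is 40% higher and 20% lower, against 5.58% and 7.11% of all miRNAs. MiR-455, which lies within the collagen gene Col27a1, had 9.33, 9.76 and 9.68 at 10 h, against 9.18, 8.78 and 9.08 at 0 h (0.58, standard error 0.13, adjusted p = 0.0059). MiR-346, which in human cells is induced through XBP1, had 7.18, 7.44 and 6.94 at 10 h, against 6.61, 6.67 and 6.64 at 0 h (0.55, 0.13, 0.010). The 10 h arrays of miR-346 were spread more widely than its 0 h arrays, and its call ended without the second of them (0.064).

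**Figure D3:**
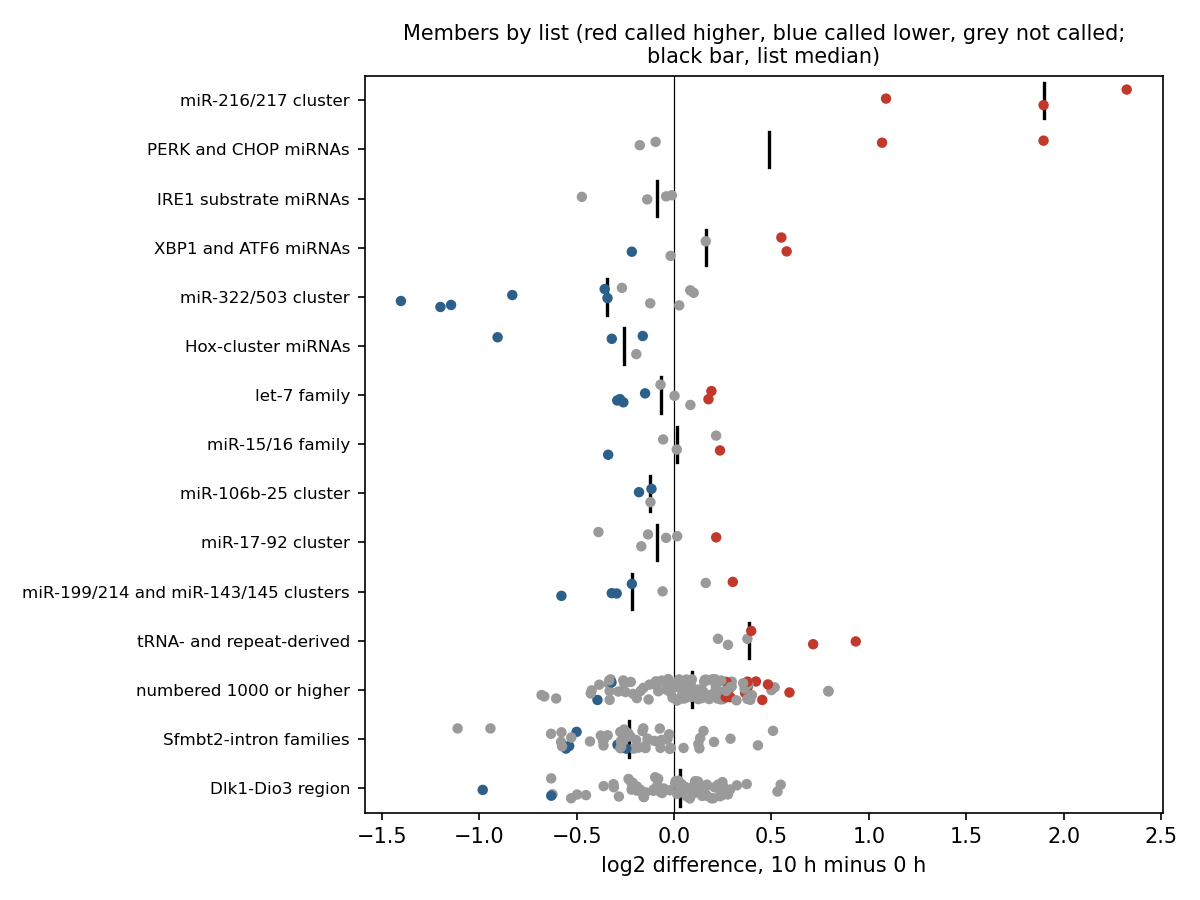
Difference between 10 h and 0 h (x axis, log2) of every member of 15 lists (rows), with called members in red (higher) or blue (lower), uncalled ones in grey and the list median as a black bar. Differences are as fitted, also for members below the background limit. All 3 points of the cluster of miR-216a, miR-216b and miR-217 are red, and all 4 IRE1 substrates are grey.

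Among the falls, miR-205 and miR-200c were the largest by far, and both are epithelial markers. MiR-205 had 1.94, 2.10 and 2.11 at 10 h, against 9.30, 9.16 and 9.18 at 0 h, a fall of at least 70.0-fold. MiR-200c had 2.05, 1.65 and 2.47 at 10 h, against 7.70, 7.65 and 7.86 at 0 h, a fall of at least 25.1-fold. None of the 7 epithelial markers was above the limit on any 10 h array, and miR-205 and miR-200c were above it on all 3 at 0 h. But 4 of the 7 were below the limit on all 3 arrays at 0 h as well. Among them was miR-141, of the same cluster as miR-200c, with a mean of 1.81 at 0 h. The log2 of the summed level of the 7 was 4.58 to 4.81 at 10 h, against 9.64 to 9.77 at 0 h. In such bulk RNA, fewer cells of a type and less RNA per cell cannot be told apart. The second 0 h array was not alone in this, since all 3 0 h arrays carried both miRNAs, and what part epithelial RNA had in the other differences was not tested.

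In the cluster of miR-322 and miR-503 the measured guides fell together with star arms. These miRNAs are known to rise when cells leave the cell cycle, and miR-503 and miR-322 target cyclins and other cell cycle genes. MiR-503 had 6.17, 6.21 and 6.39 at 10 h, against 7.63, 7.61 and 7.74 at 0 h (difference -1.40, standard error 0.10, adjusted p = 2.2e-07). MiR-322 had 6.54, 6.62 and 6.47 at 10 h, against 7.42, 7.39 and 7.32 at 0 h (-0.83, 0.11, 1.0e-04). MiR-351 had 9.58, 9.61 and 9.74 at 10 h, against 9.98, 10.02 and 10.01 at 0 h (-0.36, 0.06, 0.0015). The arrays were separate in all 3, and the fall was larger in the 2 dimmer ones.

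Of the 11 members of the cluster on the arrays, 6 fell and 0 rose (54.5% lower, against 7.11% of all miRNAs), with a list median of -0.34, and 4 were called with the arrays shifted to 1 median. The star arms of miR-503 and miR-322 fell too, that of miR-322 by less than its guide. MiR-503* had 2.70, 2.30 and 1.75 at 10 h, all below the limit, against 3.14, 3.98 and 3.07 at 0 h, a fall of at least 1.24-fold (adjusted p = 0.014). MiR-322* had 6.97, 6.84 and 7.02 at 10 h, against 7.24, 7.30 and 7.32 at 0 h (-0.34, adjusted p = 0.021). MiR-450b-3p had 2.59, 1.92 and 3.38 at 10 h, 1 array of them above the limit, against 3.87, 3.74 and 3.89 at 0 h (adjusted p = 0.024). These 3 calls were the weak ones. That of miR-503* ended without the third 10 h (adjusted p = 0.088) or the second 0 h array (0.053), that of miR-322* without the second 10 h (0.093), the second 0 h (0.053) or the third 0 h array (0.074), and that of miR-450b-3p without the first or second 10 h array (0.062 and 0.13) or the first or the third 0 h array (0.069 and 0.067). Of the other 5 members, miR-542-5p was measured and not called, and 4 were below the limit at 10 h and 0 h.

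MiR-872 had 5.61, 5.52 and 5.10 at 10 h, against 6.51, 6.44 and 6.38 at 0 h (-1.03, standard error 0.16, adjusted p = 5.0e-04). MiR-671-5p had 7.12, 7.58 and 7.22 at 10 h, against 8.07, 8.05 and 7.95 at 0 h (-0.71, 0.11, 5.0e-04). MiR-376b, from the imprinted Dlk1-Dio3 region, had 2.59, 2.69 and 2.77 at 10 h, all below the limit, against 3.35, 3.77 and 3.87 at 0 h, a fall of at least 1.49-fold (adjusted p = 0.0093). None of these overlapped between the time points. Of the 69 miRNAs of the Dlk1-Dio3 region, 2 were called lower (2.9%, against 7.11% of all miRNAs), miR-376b and miR-493, which was below the limit on all 6 arrays, and the list median was 0.03.

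Of 4 guide miRNAs encoded among the Hox genes, which pattern the body axis, 3 fell and 0 rose (75% lower, against 7.11% of all miRNAs). MiR-10a, miR-10b and miR-196a lay in the brightest bin, where 32 of 179 were lower. MiR-196b, within the Hoxa genes at chr6:52230129-52230150 on the minus strand, had 5.24, 5.25 and 4.96 at 10 h, against 6.30, 6.10 and 5.76 at 0 h (-0.91, standard error 0.18, adjusted p = 0.0033). MiR-10b, within the Hoxd genes at chr2:74726074-74726096 on the plus strand, had 10.93, 11.01 and 11.01 at 10 h, against 11.35, 11.30 and 11.26 at 0 h (-0.32, 0.05, 3.1e-04). Its star arm miR-10b* fell by 0.60 (adjusted p = 0.0015). MiR-10a fell by 0.16 (0.044), a call that ended without any 1 of the 6 arrays (adjusted p 0.074 to 0.15), and miR-196a was not called. With the arrays shifted to 1 median, miR-196b was the 1 of the 4 still called.

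The let-7 family, which is known to promote differentiation and to repress growth genes such as Ras and Hmga2, split in 2 directions. Of 9 members, let-7d and let-7e rose, let-7a, let-7f, let-7g and miR-98 fell, and let-7b, let-7c and let-7i were not called. The 6 calls are 66.7% of the family, against 12.7% of all miRNAs and 36.9% of the brightest bin, which holds all 9. Since the members are so alike, their probe sets may not be separate measurements. Let-7d had 14.00, 14.00 and 14.02 at 10 h, against 13.80, 13.81 and 13.87 at 0 h (0.18, standard error 0.03, adjusted p = 0.0019). Let-7e had 13.66, 13.69 and 13.71 at 10 h, against 13.50, 13.46 and 13.53 at 0 h (0.19, 0.05, 0.010). Let-7f had 11.66, 11.81 and 11.75 at 10 h, against 12.01, 12.05 and 11.98 at 0 h (-0.28, 0.06, 0.0093). Let-7g had 11.32, 11.41 and 11.41 at 10 h, against 11.62, 11.69 and 11.61 at 0 h (-0.26, 0.04, 9.9e-04). All 6 called members were separate between the time points, and their differences were at most 0.29 in size.

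With the arrays shifted to 1 median none of the 9 was called, although let-7d (0.26, adjusted p = 0.053) and let-7e (0.27, 0.067) then had larger differences. The call of miR-98 (-0.29, adjusted p = 0.043) ended without any array but the third 0 h array (0.084 to 0.13). After quantile normalization let-7g (adjusted p = 0.099) and miR-98 (0.12) were not called and let-7i was (-0.13, 0.0077). A difference of 2 probe sets within an array cancels a shift of the whole array, though not quantile normalization. The let-7d value minus the let-7f value was 2.34, 2.19 and 2.27 at 10 h, against 1.79, 1.76 and 1.89 at 0 h, a change of 0.45 (0.43 after quantile normalization). Let-7e minus let-7f was 2.00, 1.89 and 1.96 at 10 h, against 1.49, 1.40 and 1.55 at 0 h, a change of 0.47 (0.53). These pairs were picked after their values were known, and no test is given. Let-7d and 1 copy of let-7f lie in the same cluster on chromosome 13, let-7e lies on chromosome 17, and miR-98 lies beside a second copy of let-7f on chromosome X, which the probe set cannot tell from the first.

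Other bright seed families were mixed too. In the family of miR-15a and miR-16, miR-15a fell with 10.05, 9.93 and 9.82 at 10 h, against 10.27, 10.32 and 10.22 at 0 h (-0.34, standard error 0.07, adjusted p = 0.0031), while miR-195 rose with 10.43, 10.43 and 10.38 at 10 h, against 10.15, 10.16 and 10.22 at 0 h (0.24, 0.05, 0.0064). The miR-195 value minus the miR-15a value was 0.38, 0.51 and 0.56 at 10 h, against -0.12, -0.15 and 0.00 at 0 h. The pair was picked after its values were known, and no test is given. The call of miR-195 ended with quantile normalization (0.09, adjusted p = 0.26) and that of miR-15a with the arrays shifted to 1 median (0.12). The family that shares the seed AAAGUGC, which promotes proliferation, had 6 members. Of these, miR-106a (-0.19), miR-106b (-0.18) and miR-93 (-0.12) fell, and miR-17, miR-20a and miR-20b were not called. Of all miRNAs 7.11% were lower, and of the brightest bin 32 of 179. The calls of miR-106a, miR-106b and miR-93 all ended with the arrays shifted to 1 median (adjusted p 0.43 to 0.83). That of miR-106b also ended without the second or the third 10 h or the third 0 h array (0.053 to 0.13), and that of miR-93 without any array but the second 0 h array (0.083 to 0.21). MiR-106b and miR-93 are processed from an intron of Mcm7 together with miR-25, which was at -0.12 and did not pass (adjusted p = 0.11). From the miR-17-92 cluster, a target of Myc, 1 of 6 members was called (16.7%, near the 12.7% of all miRNAs). It was miR-92a with a rise of 0.22 (adjusted p = 0.010), a call lost without the second 0 h array (0.052).

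The bright mesenchymal miRNAs differed in sign. MiR-199a-3p and miR-199b, whose sequence is identical, each come from transcripts antisense to dynamin genes.
miR-199a-3p: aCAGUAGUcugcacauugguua
miR-199b: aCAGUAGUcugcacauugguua
MiR-199a-3p had 13.30, 13.28 and 13.29 at 10 h, against 13.61, 13.63 and 13.59 at 0 h (-0.32, standard error 0.03, adjusted p = 2.4e-06), and miR-199b had 13.36, 13.31 and 13.32 at 10 h, against 13.63, 13.62 and 13.62 at 0 h (-0.29, 0.03, 6.2e-06). As the 2 probe sets read 1 sequence, they count as 1 measurement. MiR-199b* (-0.58, adjusted p = 1.2e-05) and miR-199a-5p (-0.22, 0.0033) fell too. MiR-145, a miRNA of smooth muscle and mesenchyme, rose with 13.51, 13.51 and 13.50 at 10 h, against 13.23, 13.16 and 13.22 at 0 h (0.30, 0.03, 2.4e-06). Its neighbour miR-143 was at 12.55, 12.50 and 12.46 at 10 h, against 12.52, 12.57 and 12.60 at 0 h, and overlapped (adjusted p = 0.37). The miR-145 value minus the miR-199a-3p value was 0.20, 0.23 and 0.21 at 10 h, against -0.38, -0.47 and -0.37 at 0 h, a change of 0.62. A shift of whole arrays leaves it as it is, and it was 0.63 after quantile normalization. This pair too was picked after its values were known, and no test is given. With the arrays shifted to 1 median, miR-145 and miR-199b* were still called, and miR-199a-3p (adjusted p = 0.056), miR-199b (0.098) and miR-199a-5p (0.33) were not.

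**Figure D4:**
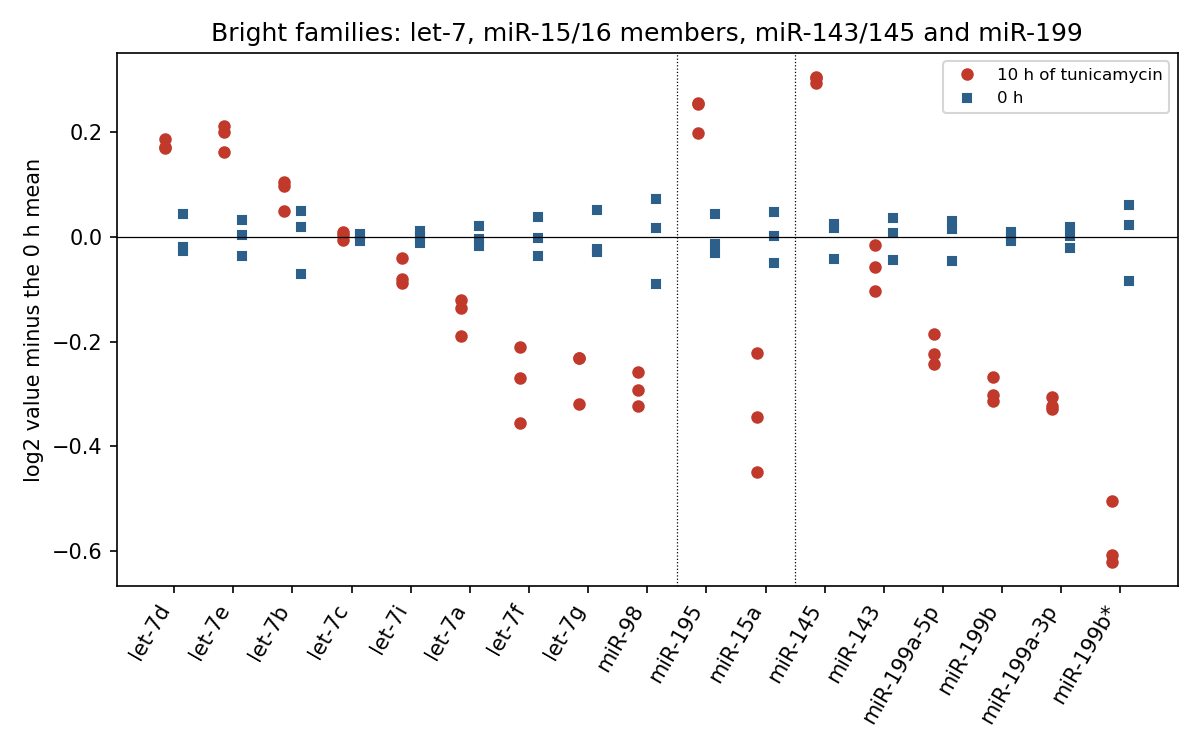
Log2 value minus the 0 h mean (y axis) for members of bright families (x axis), with the 3 arrays at 10 h of tunicamycin as red circles to the left of the 3 arrays at 0 h as blue squares. Let-7d, let-7e, miR-195 and miR-145 sit above the 0 h arrays, and let-7f, let-7g, miR-15a and the miR-199 arms sit below them.

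The 2 arms of a hairpin were compared in 120 pairs. Both arms fell in 4 pairs (miR-503, miR-322, miR-10b and miR-199b), both rose in 0, and in 80 neither was called. The guide alone rose in 8 pairs and fell in 19, and the star alone rose in 3 and fell in 5. MiR-34c was the 1 pair with calls of opposite sign. Since a call of 1 arm and not of the other does not show that they differ, the star value minus the guide value of each array was fitted in limma over the 120 pairs. It changed in 22 (18.3%), of which 14 were among the 50 pairs with both arms above the limit on all 6 arrays. Among the 14 was miR-322, whose star fell less than its guide (0.49, adjusted p over the pairs = 0.038). MiR-199b was another, and its star fell more than its guide (-0.28, 0.046). Both of these ended without the first 0 h array (0.10 and 0.14). This test was chosen after the data were seen, and 8 to 13 pairs passed without any 1 of the 6 arrays.

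Of those 14, the pairs of miR-27a, miR-214 and miR-872 stayed called without any 1 of the 6 arrays. Their arms are printed because the arms of each pair were compared. They are RefSeq sequences matched by name, as above, and do not show what a probe set reads.
miR-27a*: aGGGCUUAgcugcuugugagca
miR-27a: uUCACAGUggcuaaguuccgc
miR-214*: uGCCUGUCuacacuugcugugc
miR-214: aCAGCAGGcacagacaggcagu
miR-872*: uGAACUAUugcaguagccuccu
miR-872: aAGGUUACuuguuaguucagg
MiR-27a*, at chr8:84208685-84208706 on the plus strand, had 8.70, 8.57 and 8.71 at 10 h, against 8.01, 8.03 and 8.21 at 0 h, and its guide miR-27a had 13.20, 13.17 and 13.19 at 10 h, against 13.20, 13.25 and 13.25 at 0 h. The star minus guide value rose by 0.63 (standard error 0.10, adjusted p over the pairs = 0.0022). MiR-214*, at chr1:162223397-162223418 on the plus strand, had 8.96, 8.84 and 8.83 at 10 h, against 9.39, 9.30 and 9.47 at 0 h, and miR-214 had 12.72, 12.85 and 12.78 at 10 h, against 12.69, 12.48 and 12.69 at 0 h. The star minus guide value fell by 0.67 (0.10, 0.0016). MiR-872*, at chr4:94665206-94665227 on the plus strand, had 8.87, 8.64 and 8.82 at 10 h, against 8.92, 8.91 and 8.91 at 0 h, so the fall of miR-872 given above was not matched by its star. The star minus guide value rose by 0.89 (0.16, 0.0051), and this passed only with the spread of all 12 arrays (adjusted p = 0.054 on the 6 arrays alone).

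MiR-34c, a miRNA induced by p53, had 10.42, 10.36 and 10.30 at 10 h, against 10.58, 10.62 and 10.62 at 0 h (-0.25, adjusted p = 0.0056). Its star arm had 10.22, 10.23 and 10.26 at 10 h, against 10.02, 9.95 and 9.93 at 0 h (0.27, 0.021). The star minus guide value rose by 0.52 (standard error 0.11, adjusted p over the pairs = 0.015). It did not pass without the third 10 h array (0.067) or on the 6 arrays alone (0.060). The call of miR-34c ended with the arrays shifted to 1 median (0.33), and that of miR-34c* ended without the second or the third 10 h array (0.061 and 0.083) or the second or the third 0 h array (0.053 and 0.074).

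Probe sets named for fragments of transfer RNA or of repeats, some of which have since left the miRNA registry, stood at a list median of 0.39 over 6 members, against 0.02 over all miRNAs. MiR-706, miR-720 and miR-690 rose (50%, against 5.58% of all miRNAs), 0 fell, and the count was 3 under each scaling tried. MiR-720 had 8.40, 8.22 and 8.19 at 10 h, against 7.66, 7.43 and 7.59 at 0 h (0.71, standard error 0.09, adjusted p = 4.3e-05). MiR-690 had 13.17, 13.34 and 13.34 at 10 h, against 12.94, 12.87 and 12.85 at 0 h (0.40, 0.07, 0.0011). Among the 118 miRNAs with 4 digits in their number, which entered the registry late and are often weakly supported as miRNAs, 11 rose (9.32%, against 5.58% of all miRNAs) and 2 fell (1.69%, against 7.11%), with a list median of 0.09. The 54 members of the families of miR-297, miR-466, miR-467 and miR-669, near copies known from rodents, of which 46 lie in the cluster in an intron of Sfmbt2, had 0 higher and 6 lower, among them miR-467d* (-0.55) and miR-467e (-0.54), and a list median of -0.23. The 6 are 11.1% of the list, against 7.11% lower among all miRNAs. With the arrays shifted to 1 median 2 of these 54 were called, and with the second array of 0 h and that of 5 h left out 2 were higher and 6 lower, with a median of -0.13. MiR-467e was lost without the second 10 h (adjusted p = 0.086) or the first 0 h array (0.095), and since members of this family are so alike, its probe sets may not be separate measurements. Of all 121 star arms, 4 rose and 9 fell, 10.7% against 12.7% of all miRNAs. MiR-9*, a neuronal miRNA, was among them (-0.54, adjusted p = 0.046), and lost its call without any 1 of the 6 arrays (0.053 to 0.17).

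Hairpin probe sets give a second reading of the same loci, though 140 of 690 alone were above the limit on all 6 arrays. None of the 690 was called in limma (percent called 0), with 29 higher and 23 lower at an unadjusted p under 0.05. The smallest adjusted p was 0.27. The hairpin of miR-217 had 2.48, 3.11 and 2.80 at 10 h, 1 of them above the limit, against 2.34, 2.03 and 2.32 at 0 h, a difference of 0.57 (adjusted p = 0.30). That of miR-216b had 3.73, 3.30 and 3.19 at 10 h, against 3.02, 2.92 and 2.98 at 0 h (0.44, adjusted p = 0.48). The hairpin of miR-346 had 5.85, 5.98 and 5.85 at 10 h, against 5.66, 5.55 and 5.47 at 0 h (0.34). Of 38 hairpin probe sets of the 15 largest rises and falls, 10 did not overlap (13% of all hairpins did not), 8 in the direction of the mature miRNA and 2 against it. Of the 8, the hairpins of miR-216b, miR-455, miR-346 and miR-423-5p were above the limit on all 3 arrays of a time point. Those 2 were a hairpin of miR-27a*, with 4.79, 4.77 and 4.42 at 10 h, against 5.28, 4.81 and 4.84 at 0 h (-0.32), and one of miR-9*, with 4.35, 4.70 and 4.42 at 10 h, against 3.89, 3.98 and 3.90 at 0 h (0.56), which had the smallest adjusted p of all hairpins. The hairpin probe sets of miR-708 overlapped, and that of miR-872 was at 4.57, 4.48 and 4.33 at 10 h, against 4.68, 4.48 and 4.36 at 0 h.

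Which differences came late was read from the same 10 h arrays against the 5 h and 2 h arrays, so these comparisons share arrays and are given side by side. Against 5 h, 13 miRNAs were higher and 27 lower at 10 h (5.58% called), and against 2 h 41 were higher and 37 lower (10.9%). With the arrays shifted to 1 median the counts were 9 and 5 against 5 h and 45 and 17 against 2 h, and quantile normalization left 16 lower against 5 h. Of the 40 miRNAs higher than at 0 h, 11 were also higher than at 5 h and 15 higher than at 2 h. Of the 51 lower than at 0 h, 15 were also lower than at 5 h and 25 lower than at 2 h. The other reading is against 0 h, where 60 miRNAs differed at 5 h (8.37%) and 95 at 2 h (13.2%). Of the miRNAs called at 10 h, 14 of the 40 higher and 18 of the 51 lower were called at neither of those times.

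MiR-217, miR-216b, miR-503, miR-872, miR-322 and miR-196b all moved most after 5 h, and miR-216a was above the limit at 10 h alone. MiR-217 had a mean of 4.28 at 0 h, then 4.45 after 2 h, 4.71 after 5 h and 6.60 after 10 h. MiR-503 had 7.66 at 0 h, then 7.11 after 2 h, 7.21 after 5 h and 6.26 after 10 h, so that part of its fall had come by 2 h (-0.54, adjusted p = 0.0026). MiR-196b had 6.05 at 0 h, then 5.93 after 2 h, 6.10 after 5 h and 5.15 after 10 h, and fell after 5 h (-0.95, adjusted p = 0.0051). MiR-130b had 8.86 at 0 h, then 8.71 after 2 h, 9.09 after 5 h and 9.53 after 10 h, and 10 h was above 5 h (0.44, 0.0030) and 2 h (0.82, 2.6e-06).

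Other differences were present by 5 h. MiR-205 had 5.73, 5.06 and 5.59 at 2 h, a difference of -3.75 from 0 h (adjusted p = 3.5e-08), and was below the limit on all 3 arrays at 5 h. MiR-200c had 4.06, 4.30 and 4.54 at 2 h, a difference of -3.44 from 0 h (5.0e-07), and was below the limit on all 3 arrays at 5 h. The 2 largest falls at 10 h had thus reached background by 5 h. MiR-27a* was 0.91 above 0 h at 5 h, and was lower at 10 h than at 5 h (-0.33, adjusted p = 0.027). MiR-455 was 0.61 above 0 h at 5 h (0.0070) and at -0.04 between 5 h and 10 h (0.92). MiR-10b was above and then below its 0 h level. Its mean was 11.30 at 0 h, 11.67 after 2 h and 10.98 after 10 h, so that it was called higher at 2 h (0.36, adjusted p = 1.0e-04) and lower at 10 h. It was already lower at 5 h (-0.31, 8.7e-04).

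**Figure D5:**
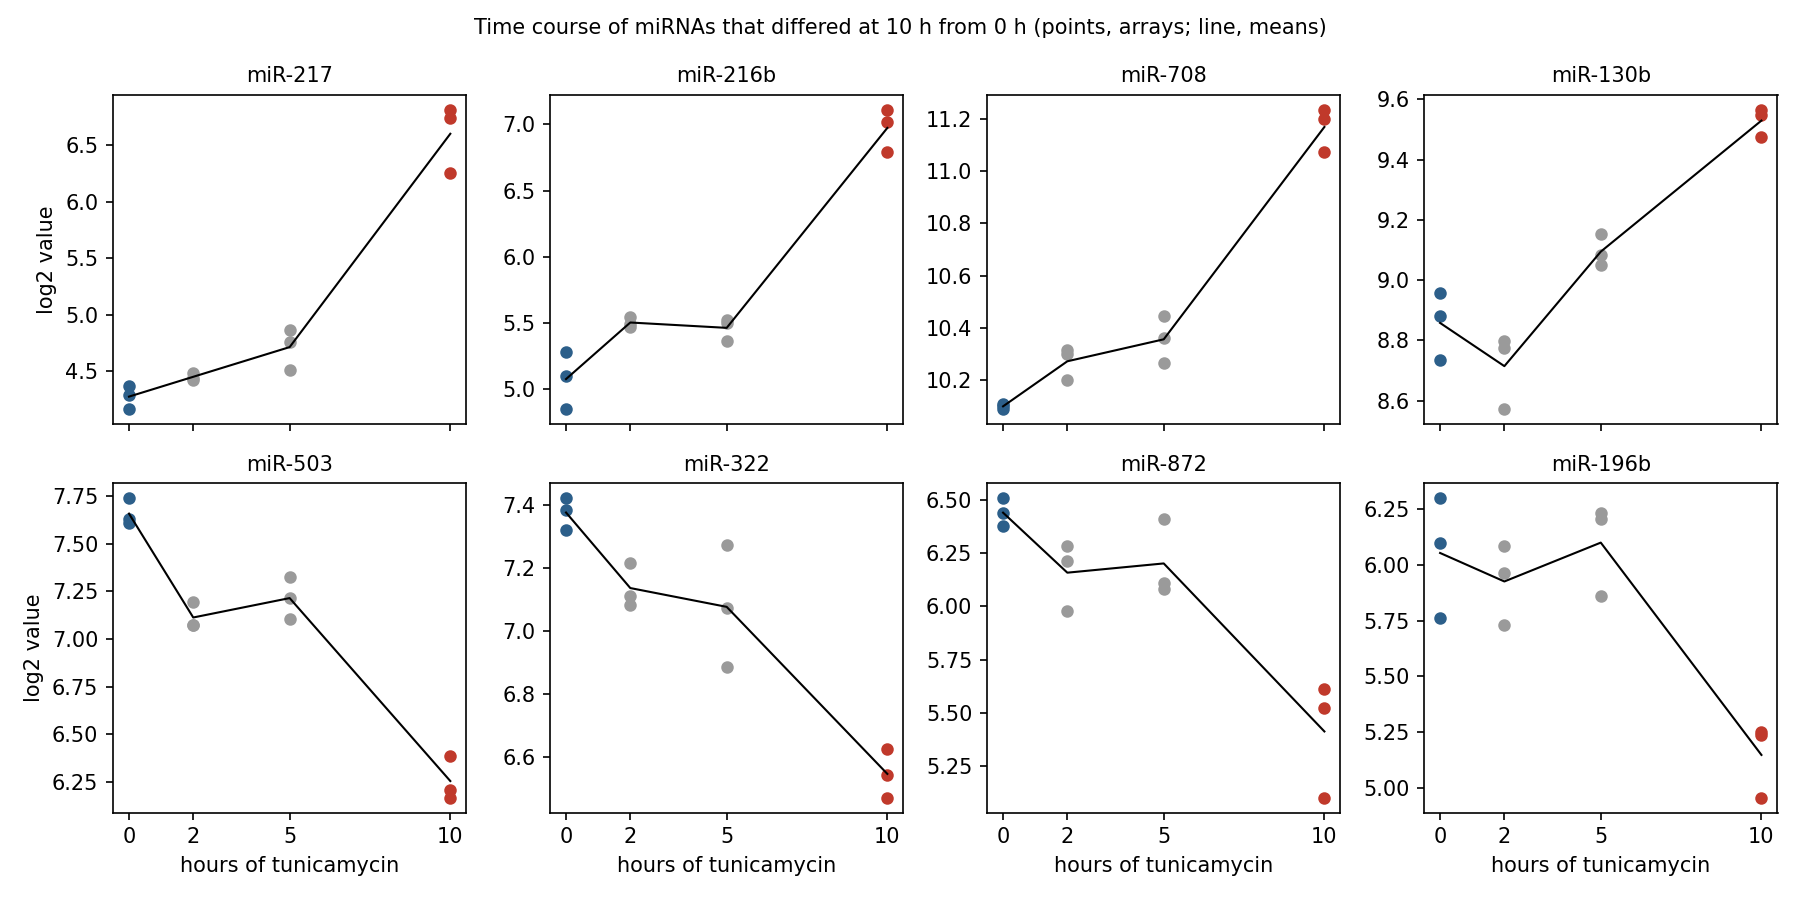
Log2 value (y axis) against hours of tunicamycin (x axis) for 4 miRNAs that rose and 4 that fell at 10 h, with the 3 arrays of each time point as points (10 h red, 0 h blue) and a line through the means. In each panel the 3 red points are beyond every other point of the panel.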

How the data were processed

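RNA from NIH3T3 cells was measured on GeneChip miRNA arrays (Affymetrix). The authors deposited 1 log2 value for each probe set on each array, and the processing notes name RMA, without a version. A second deposited table repeats those log2 values (largest difference 0). Beside them the authors deposited p-values, linear ratios to 0 h, and fold changes and other statistics (score values) of their own tests, and none of these was used. The sources used here do not give the genome build of the array's annotation. The values were analysed without a new normalization.

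Mature probe sets (717, with 121 star arms) entered 1 limma fit (version 3.58.1, R 4.3.3) of the 12 arrays with a mean for each of the 4 time points and a prior variance that followed the mean. Contrasts were two-sided. The 690 hairpin probe sets were fitted apart, the 5 probe sets under older names were left out, and star minus guide values were fitted with a constant prior. The code was tested on simulated data. Precision is limited by the number of arrays, and the median standard error was 0.156. Arrays of a time point had at most 0.283% of their values in common.

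Groups come from the sample titles. The members, lists and tests were chosen with earlier results of these data known. Named are the 15 largest rises and falls among called miRNAs without overlap and above the limit at the brighter time point, the miRNAs the study names, the called member of each list with the largest difference (the brightest where none was called), the 10 brightest at 0 h, families and clusters with at least 3 called members, and the other arms and hairpins of the first set. Not all of these are printed. The miRNAs miR-10a, miR-30c-2*, miR-34c*, miR-143, miR-145, miR-195, miR-196a, miR-212, miR-493 and miR-690 lie outside that rule and were picked after their values were seen. Clusters join hairpins within 10 kb. A fold against a time point with all arrays below the limit is a lower bound. Alternatives covered scaling, a filter on brightness, the variance model, the methods' t-test, array weights, a replicate block, the arrays in the fit and each array left out.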

Additional observations from a re-analysis of the deposited data

Results flagged for a closer look

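Among the miRNAs chosen for description and called against 0 h, 10 also passed in limma between 10 h and 5 h with a difference of at least 0.5. These differences were 1.89 for miR-217, 1.51 for miR-216b, at least 0.51 for miR-216a, 0.81 for miR-708 and 0.61 for miR-706. They were -0.96 for miR-503, -0.95 for miR-196b, -0.79 for miR-872, -0.53 for miR-322 and -0.53 for miR-671-5p. MiR-216a was below the background limit on all 3 arrays at 5 h, so its value is set against the mean limit. Another 2 were called in opposite directions, higher at 2 h and lower at 10 h, and passed between 10 h and 2 h, miR-10b with a difference of -0.68 and miR-351 with -0.60.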

How the results depend on the processing

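Of 56 called miRNAs described above, 15 stayed called under each of the 18 alternatives, 41 were lost under 1 or more, and none changed sign. These leave out miR-493, miR-211 and miR-204, which were below the limit on all 6 arrays. Against 40 higher and 51 lower, a constant prior variance gave 24 and 30, the methods' t-test 21 and 19 after adjustment (78 and 75 before it), and the shift to 1 median 38 and 18. The called falls of 2-fold or more numbered 4 among the brighter 50% and 4 by the t-test, against 9. Leaving out each array in turn gave 31 to 43 higher, 37 to 50 lower and 0 to 1 hairpins lower. The 1 hairpin came without the second 10 h array, and quantile normalization also gave 1. Lower counts against 5 h were 5 with the shift and 16 with quantile normalization (27 otherwise), and 17 against 2 h with the shift (37 otherwise). The arm pairs that passed numbered 8 to 13 without any 1 array and 5 on the 6 arrays alone (22 otherwise). Uncalled values that changed sign, with the shift, were those of miR-17 (0.042), miR-125b-5p (0.071), let-7i (0.013), miR-27a (0.036) and miR-143 (0.024). The causes were not tested. Deviations of 10 h and 0 h arrays with the same number had correlations of 0.15, -0.11 and -0.20. Those with different numbers had -0.23 to 0.27. These values cannot show whether arrays with the same number shared a culture or a batch. With replicate number as a block 38 were higher and 44 lower. Signals near the background limit bound what could be seen in the dimmer miRNAs.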

Other observations

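Among the 5 probe sets under older names, which entered no test, miR-805 had 11.27, 11.27 and 11.24 at 10 h, against 11.81, 11.77 and 11.77 at 0 h, and miR-467a-str had 7.86, 7.89 and 7.83 at 10 h, against 8.19, 8.68 and 8.12 at 0 h. Neither overlapped between the time points, and both were above the background limit on all 6 arrays. MiR-685 differed by only -0.054, and its arrays did not overlap either. MiR-699 differed by 0.081, and its arrays overlapped. Of the 717 mature miRNAs, 28% did not overlap. MiR-197 was above the limit on 1 array at 10 h and on 2 at 0 h.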
